A study of Homo sapiens with 6 samples.

Results

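The genes described here are the 48 listed genes of replication origin licensing and of the replication fork, taken by gene symbol from a table of 25548 gene rows from RNA sequencing of A375 cells, an established line of human melanoma. All 48 symbols matched 1 row each, and none was chosen by its own measured value, although the list was drawn up with earlier results of these data known. The tested cells received BMH-21, a small molecule inhibitor of RNA polymerase I, at 1 µM for 6 h, and the controls, titled 0 h, received DMSO, the solvent, with 3 samples labelled in each group and no genetic change named in either. An effect of the drug and of 6 h of further culture therefore cannot be told apart, and all values come from 1 cell line. For each group the table gives 1 estimate per gene in FPKM, that is, fragments mapped to a transcript scaled to its length and to the size of the library, with a lower and an upper bound.

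Those bounds stand in columns titled as replicates 2 and 3, and the estimate in the column titled replicate 1. The estimate was the midpoint of the other columns in 15872 of 15881 BMH-21 rows and 16203 of 16213 control rows with all values above 0. No value of a single library was therefore analysed here, no spread between replicates could be computed, and no test between the groups was possible. The sources used here do not give the confidence level of the bounds, and the sequencing depth is unknown because FPKM holds no read totals. Estimates of 12749 rows reached 1 FPKM in at least 1 group after rows of short RNAs were left out, and these measured rows serve as background for the replication genes. Of 9 markers of the melanocyte lineage, 4 reached 1 FPKM, led by the transcription factor gene SOX10 at 90.0 FPKM in BMH-21 and 97.0 FPKM in control, while TYR, TYRP1, DCT, PMEL and MLANA did not. Of the 4 that reached it, MITF (5.31 FPKM in BMH-21, 8.06 FPKM in control) and S100B (17.8 FPKM in BMH-21, 28.7 FPKM in control) were lower with separate intervals. Of 22 markers of keratinocytes, fibroblasts, leukocytes and endothelium, 6 reached 1 FPKM, namely KRT10, KRT14, LYZ, PDGFRA, LUM and DCN. The keratinocyte markers KRT10 and KRT14 were at 10.6 FPKM and 2.16 FPKM in BMH-21, and at 10.4 FPKM and 1.64 FPKM in control. Of the leukocyte markers, LYZ was at 4.88 FPKM in BMH-21 and 4.39 FPKM in control. The pan-leukocyte gene PTPRC stood at 0.00219 FPKM in BMH-21 and 0.0116 FPKM in control. The 6 fibroblast markers, of which 3 had lower and 3 had higher estimates, summed to 9.34 FPKM in BMH-21 against 4.71 FPKM in control. Their part in the results was not tested. The proteoglycan genes LUM, at 5.23 FPKM against 2.34 FPKM, and DCN, at 2.50 FPKM against 0.419 FPKM, were higher in BMH-21 with separate intervals. The other 4 overlapped. COL1A1 was at 0.459 FPKM against 0.598 FPKM and PDGFRA at 1.02 FPKM against 1.22 FPKM, BMH-21 against control. COL1A2 was at 0.0998 FPKM against 0.0993 FPKM and COL3A1 at 0.0277 FPKM against 0.0296 FPKM.

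Before a cell copies its genome, the origin recognition complex (ORC) marks the sites where replication can begin. CDC6 and CDT1 then load the ring-shaped MCM2 to MCM7 complex around the DNA, a step called licensing, which geminin blocks outside G1. In S phase the DBF4-dependent kinase CDC7, MCM10, CDC45 and the GINS complex turn the loaded rings into active helicases, and DNA polymerases alpha, delta and epsilon copy the strands with the sliding clamp PCNA. Many of these genes are transcribed at the border of G1 and S under control of E2F transcription factors, and the active tumour suppressor p53 represses many of them through p21.

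Most replication genes had lower estimates with BMH-21, by modest amounts, and CDT1 stood apart from the others. The estimate was lower in BMH-21 for 38 of 48 genes and higher for 10, while 44.7% of all measured rows were lower and 55.2% higher. The median difference of the 48 genes was -0.22 on the log2(FPKM + 1) scale, BMH-21 minus control, against 0.03 over all measured rows. Intervals did not overlap for 4 genes, CDT1, MCM6, PRIM1 and TIPIN, all lower in BMH-21. These make up 8.33% of the 48 genes, and 3.14% of measured rows were lower with separate intervals. None was higher with separate intervals, against 3.58% of measured rows. The same 4 genes were at least 1.5-fold lower, against 4.82% of measured rows, and 0 were at least 1.5-fold higher, against 5.01%. A wider call, by which the difference had to exceed a half-width made from both intervals on the log2 scale, took in 5 more genes, MCM4, MCM10, ORC1, POLD3 and POLE2. It counted 9 genes as lower, or 18.8% of the 48, against 7.07% of measured rows, and 0 as higher, against 7.18%. Other scalings gave at the most 41 lower and 7 higher estimates, with both groups rescaled to 1 sum without short RNAs. Under that scaling 54.4% of measured rows had lower estimates. In bulk RNA, fewer cells in S phase and less of these RNAs in each cell cannot be told apart.

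**Figure D1:**
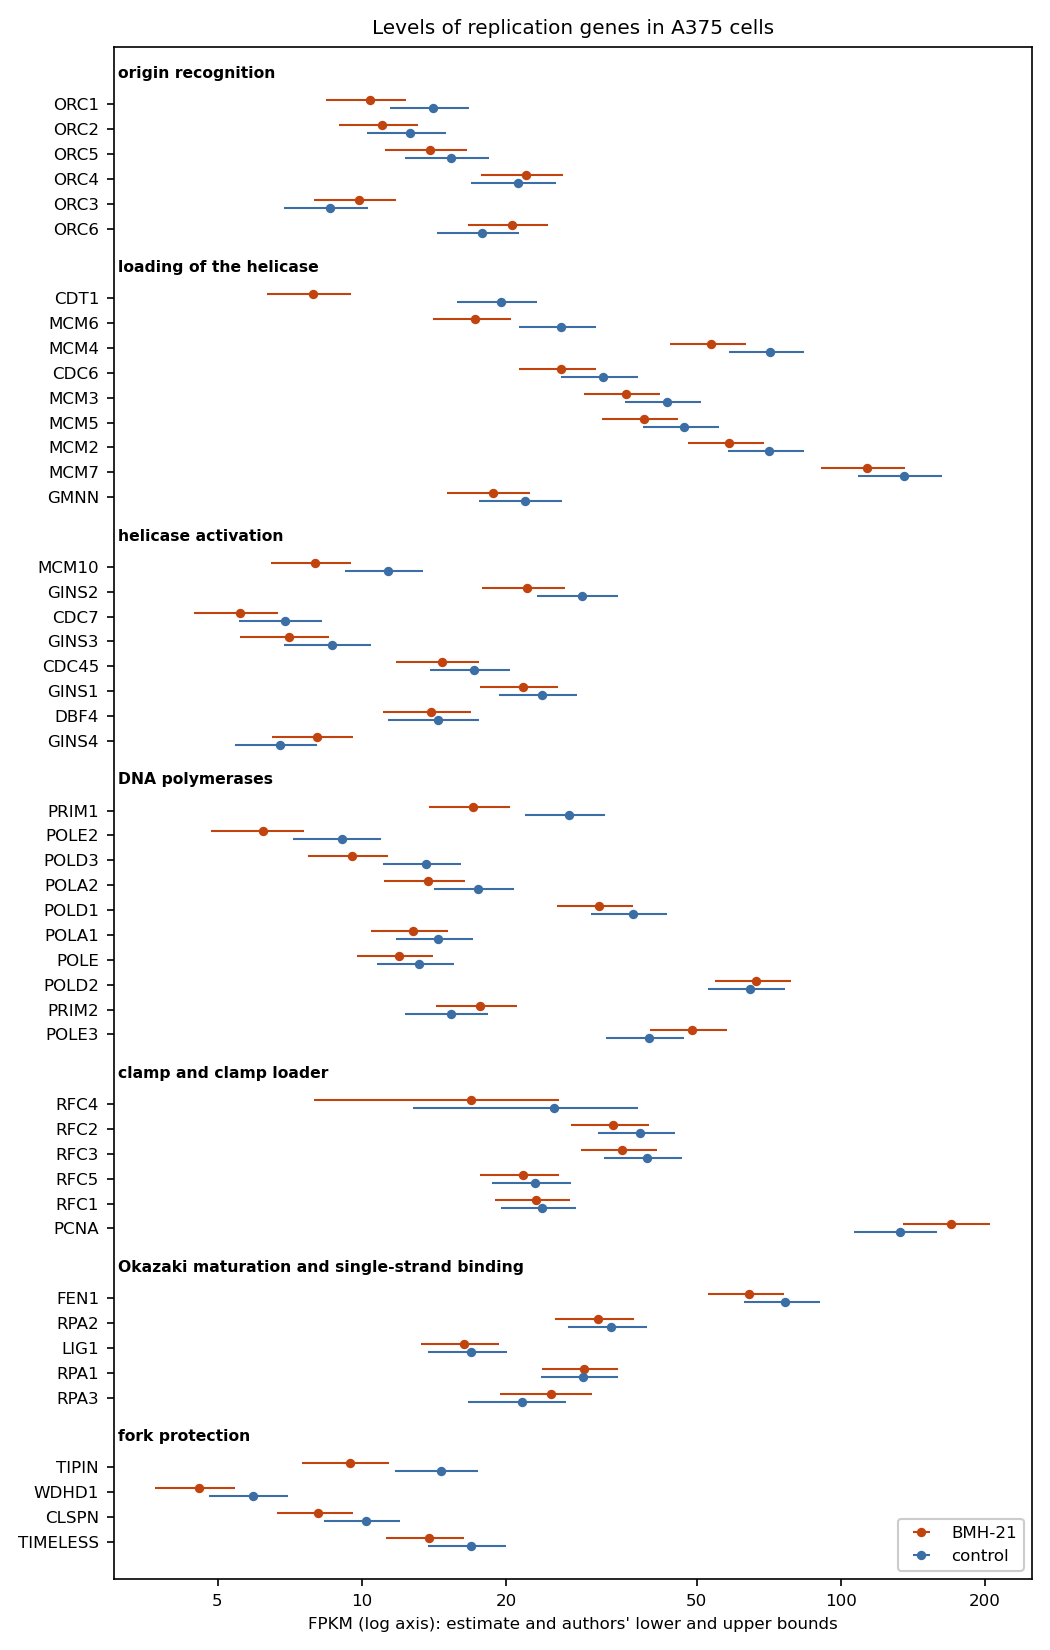
FPKM estimates (points, log axis) and the authors' lower and upper bounds (lines) of the 48 replication genes in BMH-21 (red, upper of each pair) and control (blue, lower of each pair), grouped by role. The intervals of CDT1, MCM6, PRIM1 and TIPIN do not overlap between the groups, and those of the other 44 genes do.

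All 48 genes were above 1 FPKM in both groups and 37 were above 10 FPKM. Estimates ran from 4.57 FPKM for WDHD1 to 170.0 FPKM for PCNA in BMH-21, and from 5.92 FPKM for WDHD1 to 136 FPKM for MCM7 in control. The bounds reached 17.8% to 23.0% to either side of an estimate in 47 genes, so that intervals of the median width, 18.9%, part only when the estimates differ by more than 1.46-fold. RFC4 was the exception, with bounds 53.0% to either side in BMH-21. Lower estimates mostly fell short of that limit, and 24 of the 48 genes were 10% to 30% lower in BMH-21. Another 8 genes were within 0.1 log2 of control.

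**Figure D2:**
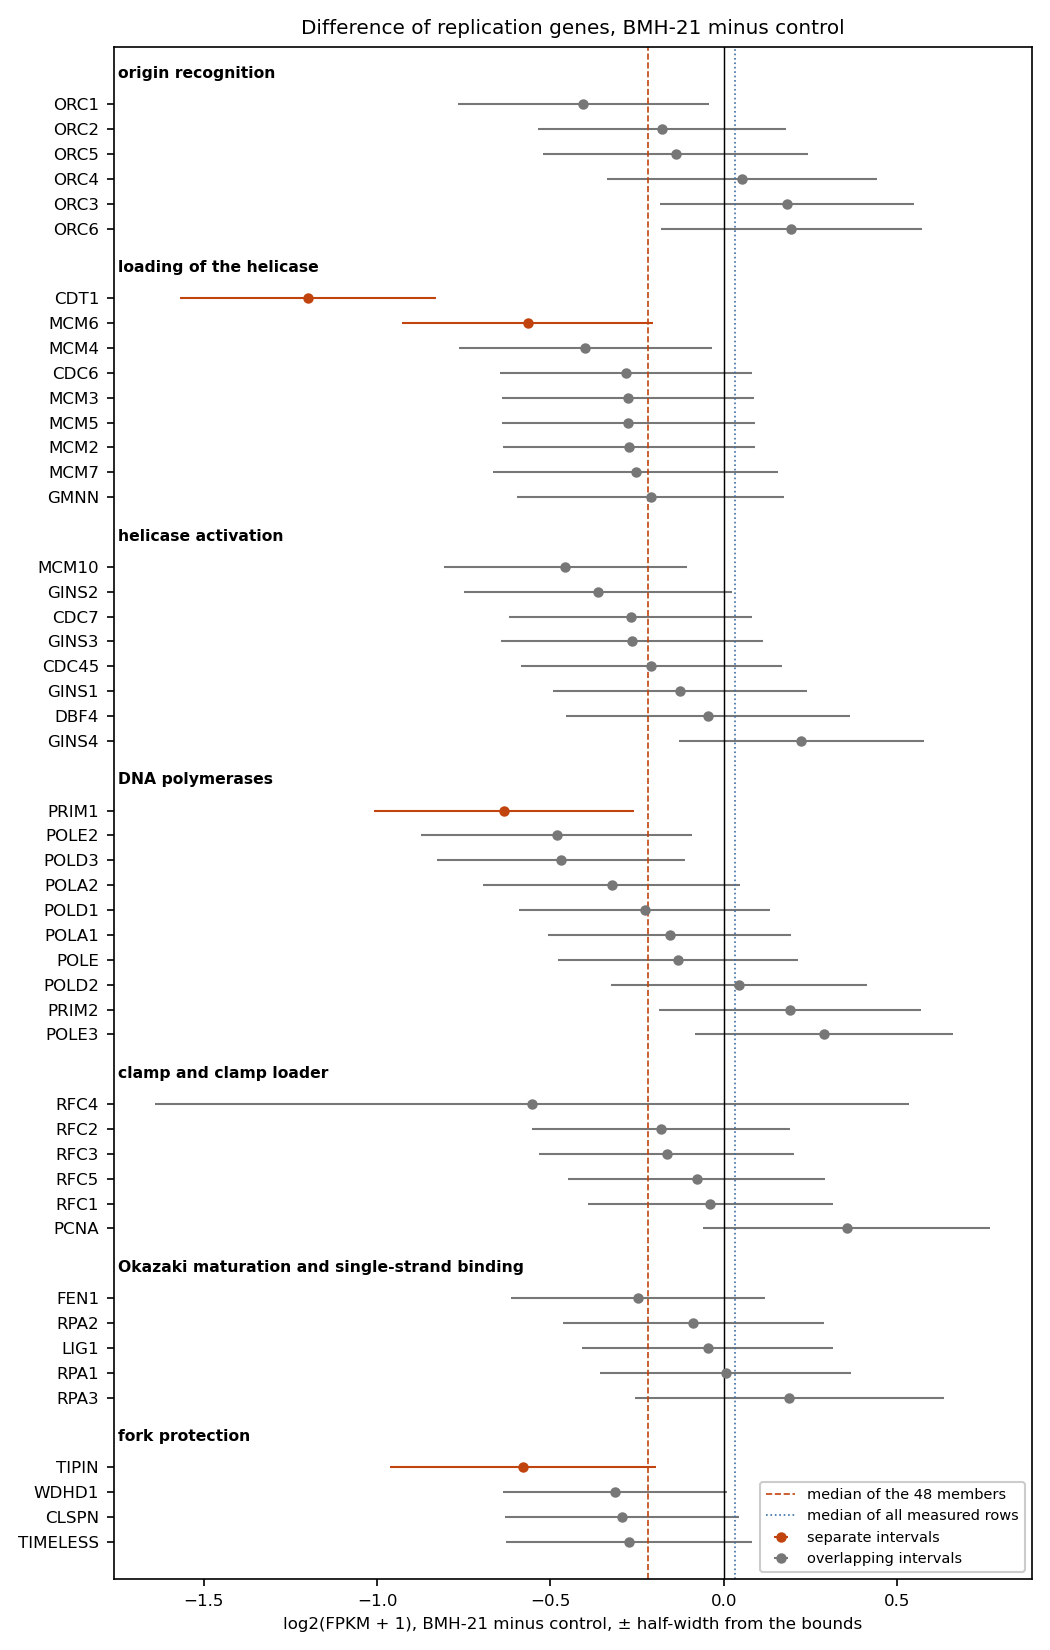
Difference of each replication gene on the log2(FPKM + 1) scale, BMH-21 minus control (points), with the half-width made from both intervals (lines), by role and ordered within it. The 4 genes with separate intervals are red, and the median of the 48 genes (dashed, -0.22) lies left of the median of all measured rows (dotted, 0.03).

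The promoters of the genes with separate intervals, and of PCNA, the gene with the highest difference, are shown because E2F factors and the factor NF-Y are known regulators of replication genes. Each line gives the 250 bases before the RefSeq start on the gene's strand, 5′ to 3′, from the GRCh38.p14 table (the expression table is based on another build, GRCh37). Capitals mark E2F words (TTTCCCGC, TTTCGCGC, TTTGCCGC or TTTGGCGC) and the CCAAT box to which NF-Y binds, each on either strand.
CDT1: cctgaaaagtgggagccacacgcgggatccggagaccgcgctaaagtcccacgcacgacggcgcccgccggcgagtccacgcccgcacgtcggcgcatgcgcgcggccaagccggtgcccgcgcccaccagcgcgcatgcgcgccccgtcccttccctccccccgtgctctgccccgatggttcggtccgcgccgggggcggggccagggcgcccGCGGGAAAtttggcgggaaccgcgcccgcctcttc
MCM6: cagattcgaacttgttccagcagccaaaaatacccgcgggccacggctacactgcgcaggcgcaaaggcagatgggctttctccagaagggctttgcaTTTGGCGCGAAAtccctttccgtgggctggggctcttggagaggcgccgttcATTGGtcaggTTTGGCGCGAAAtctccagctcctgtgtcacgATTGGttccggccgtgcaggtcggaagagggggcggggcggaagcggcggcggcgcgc
PRIM1: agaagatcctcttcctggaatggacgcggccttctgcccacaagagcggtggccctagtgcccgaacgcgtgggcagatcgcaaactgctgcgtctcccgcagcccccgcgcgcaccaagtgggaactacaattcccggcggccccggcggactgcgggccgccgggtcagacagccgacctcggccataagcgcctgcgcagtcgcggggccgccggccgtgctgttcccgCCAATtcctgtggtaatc
TIPIN: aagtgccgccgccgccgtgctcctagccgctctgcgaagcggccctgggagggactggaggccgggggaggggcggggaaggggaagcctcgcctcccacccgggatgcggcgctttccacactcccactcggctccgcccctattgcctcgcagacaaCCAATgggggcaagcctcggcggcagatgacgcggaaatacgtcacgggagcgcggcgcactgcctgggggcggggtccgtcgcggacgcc
PCNA: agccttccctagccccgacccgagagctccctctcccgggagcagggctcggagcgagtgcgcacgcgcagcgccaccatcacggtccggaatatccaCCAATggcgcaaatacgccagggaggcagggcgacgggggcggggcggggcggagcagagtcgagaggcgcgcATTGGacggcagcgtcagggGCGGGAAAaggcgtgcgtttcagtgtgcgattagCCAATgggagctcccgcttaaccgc
These windows are chr16:88803539-88803788 (plus strand) for CDT1, chr2:135876444-135876693 (minus strand) for MCM6, chr12:56752324-56752573 (minus strand) for PRIM1, chr15:66386718-66386967 (minus strand) for TIPIN and chr20:5126623-5126872 (minus strand) for PCNA. CDT1 holds 1 E2F word, 35 to 28 bases before the start, and no CCAAT box. MCM6 holds 4 E2F words in 2 overlapping pairs, each pair reading TTTGGCGC on one strand and TTTCGCGC on the other, and 2 CCAAT boxes. PRIM1 and TIPIN hold 1 CCAAT box each and none of the 4 E2F words. PCNA, whose estimate was higher in BMH-21, holds 1 E2F word and 3 CCAAT boxes. Gene promoters were found for 42 of the 48 genes and 8686 of the measured rows. An E2F word was present in 12 of the 42, or 28.6%, against 4.51% of measured rows and 2.79% of all 27305 promoters in the table. A CCAAT box was present in 23 of the 42, or 54.8%, against 35.9% of measured rows and 33.0% of all promoters. The word TTTGAA, the core of the CHR element of mitotic genes, was present in 0 of the 42, against 8.21% of measured rows and 13.6% of all promoters. Of 12 genes with an E2F word, 10 had a lower estimate (median difference -0.21) and 2, or 16.7%, were lower with separate intervals. Of 30 genes without one, 24 had a lower estimate (median difference -0.22) and 2, or 6.67%, were lower with separate intervals, and this contrast was not tested. Among measured rows with a promoter, 392 held an E2F word and 8294 did not. Of these, 3.32% and 3.13% were lower with separate intervals, and 46.7% and 44.5% had lower estimates. Their median differences were 0.02 and 0.03. The presence of these letters is a description of the sequence and does not show that a factor binds there.

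The origin recognition complex held genes of both directions. ORC1, the largest subunit, whose level follows the cell cycle, was at 10.4 FPKM in BMH-21 (bounds 8.42 to 12.4) and 14.1 FPKM in control (bounds 11.4 to 16.8). Its log2 difference of -0.41 ± 0.36 (± gives the half-width throughout) exceeded the half-width, although the intervals overlapped. ORC6, the smallest subunit, was at 20.5 FPKM in BMH-21 (bounds 16.6 to 24.5) and 17.8 FPKM in control (bounds 14.4 to 21.3), a difference of 0.19 ± 0.38. The level of ORC1 per level of ORC6 was 0.506 in BMH-21 and 0.791 in control. ORC2 was at 11.05 FPKM against 12.6 FPKM and ORC5 at 13.9 FPKM against 15.4 FPKM, BMH-21 against control. ORC3 was at 9.88 FPKM against 8.58 FPKM and ORC4 at 22.0 FPKM against 21.2 FPKM. In all, 3 subunits had a lower and 3 a higher estimate (2 higher with both groups rescaled to 1 sum without short RNAs, where ORC4 turned), none was separate, and the median difference of the 6 was -0.04.

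All 9 genes that load the helicase or control its loading had lower estimates with BMH-21, with a median difference of -0.28. CDT1, which carries the MCM ring to ORC and CDC6, was at 7.93 FPKM in BMH-21 (bounds 6.34 to 9.51) and 19.5 FPKM in control (bounds 15.8 to 23.2). The upper bound in BMH-21 lay well below the lower bound in control, the widest such gap among the 48 genes relative to the level. Its difference of -1.20 ± 0.37 had rank 6 from the lowest of the 12749 measured rows on the log2(FPKM + 1) scale. That scale shrinks differences of genes at low levels, and no rank by ratio was computed. The ratio of BMH-21 to control was 0.407 for CDT1 and 0.356 for E2F2, whose difference on that scale was -1.07. GMNN, which encodes geminin, the protein that binds and blocks CDT1, was at 18.8 FPKM in BMH-21 (bounds 15.1 to 22.4) and 21.9 FPKM in control (bounds 17.6 to 26.2), with overlapping intervals. The level of CDT1 per level of GMNN was 0.422 in BMH-21 against 0.891 in control. CDC6, the ATPase that completes the loading machine with ORC, was at 26.1 FPKM in BMH-21 (bounds 21.3 to 30.8) and 31.9 FPKM in control (bounds 26.0 to 37.7), also with overlapping intervals.

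The 6 genes of the MCM ring all had lower estimates, and their summed level was 317 FPKM in BMH-21 against 394 FPKM in control, a ratio of 0.805. MCM6 was at 17.3 FPKM in BMH-21 (bounds 14.1 to 20.5) and 26.0 FPKM in control (bounds 21.3 to 30.8), a difference of -0.57 ± 0.36 with narrowly separate intervals. MCM6 also had the lowest level of the 6 in both groups, and its level per level of MCM2 was 0.295 in BMH-21 and 0.367 in control. MCM4 was at 53.6 FPKM in BMH-21 (bounds 44.0 to 63.3) and 71.1 FPKM in control (bounds 58.3 to 83.8), overlapping, with a difference of -0.40 ± 0.36. The other ring genes lay close together in their ratio of BMH-21 to control. MCM2 was at 58.6 FPKM against 71.0 FPKM, MCM3 at 35.6 FPKM against 43.3 FPKM and MCM5 at 38.8 FPKM against 47.1 FPKM. MCM7, the ring gene with the highest level, was at 114 FPKM in BMH-21 (bounds 90.8 to 136) and 136 FPKM in control (bounds 109 to 163), a ratio of 0.837 that was the nearest to 1 of the 6. All 5 ring genes other than MCM6 overlapped, with ratios of 0.755 or more.

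Among the 8 genes that activate the loaded helicase, 7 had lower estimates and none was separate. MCM10, an initiation factor that is not a ring subunit, was at 7.98 FPKM in BMH-21 (bounds 6.47 to 9.50) and 11.3 FPKM in control (bounds 9.22 to 13.4). Its difference of -0.46 ± 0.35 was the lowest of these 8 and exceeded the half-width. The kinase gene CDC7 was at 5.56 FPKM against 6.91 FPKM, BMH-21 against control, and DBF4, which encodes its activating subunit, at 14.0 FPKM against 14.5 FPKM. CDC45, a helicase cofactor that travels with the ring, was at 14.7 FPKM against 17.1 FPKM. The GINS genes, which encode the other helicase cofactor, did not share a direction. GINS2 was at 22.2 FPKM against 28.8 FPKM, GINS3 at 7.05 FPKM against 8.66 FPKM and GINS1 at 21.7 FPKM against 23.7 FPKM. GINS4 was the one gene of the 8 with a higher estimate, at 8.05 FPKM in BMH-21 (bounds 6.49 to 9.61) and 6.75 FPKM in control (bounds 5.43 to 8.07), a difference of 0.22 ± 0.35. All GINS intervals overlapped.

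The 10 genes of the replicative polymerases had a median difference of -0.19, with 7 lower and 3 higher estimates (2 higher under quantile normalization and under rescaling to 1 sum without short RNAs, where POLD2 turned). PRIM1, the catalytic subunit of primase, which lays down the RNA primer of each new strand, was at 17.1 FPKM in BMH-21 (bounds 13.8 to 20.4) and 27.1 FPKM in control (bounds 21.9 to 32.2). Its difference of -0.63 ± 0.38, with separate intervals, was the second lowest of the 48 genes. PRIM2, the other primase subunit, stood on the opposite side, at 17.7 FPKM in BMH-21 (bounds 14.3 to 21.1) and 15.3 FPKM in control (bounds 12.3 to 18.4), with overlapping intervals. PRIM1 per PRIM2 was thus 0.967 in BMH-21 against 1.76 in control. POLA1, the catalytic subunit of polymerase alpha, was at 12.8 FPKM against 14.4 FPKM, BMH-21 against control, and its partner POLA2 at 13.7 FPKM against 17.5 FPKM, both overlapping.

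In both polymerase delta and polymerase epsilon, an accessory subunit had the lowest difference. POLD3, an accessory subunit of the lagging strand polymerase delta, was at 9.55 FPKM in BMH-21 (bounds 7.72 to 11.4) and 13.6 FPKM in control (bounds 11.1 to 16.1). Its difference was -0.47 ± 0.36 with narrowly overlapping intervals, while the catalytic POLD1 was at 31.2 FPKM against 36.8 FPKM and POLD2 at 66.6 FPKM against 64.6 FPKM. POLE2, an accessory subunit of the leading strand polymerase epsilon, was at 6.22 FPKM in BMH-21 (bounds 4.85 to 7.58) and 9.08 FPKM in control (bounds 7.18 to 10.98), a difference of -0.48 ± 0.39. The catalytic POLE was at 11.9 FPKM in BMH-21 and 13.2 FPKM in control. POLE3, a histone-fold subunit of polymerase epsilon that also serves in chromatin remodelling, was at 48.8 FPKM in BMH-21 (bounds 39.9 to 57.8) and 39.7 FPKM in control (bounds 32.3 to 47.1). Its difference of 0.29 ± 0.37 was the highest of the polymerase genes and lay within the half-width. The level of POLE3 per level of POLE2 was 7.85 in BMH-21 and 4.38 in control.

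The estimate of the sliding clamp was higher in BMH-21 and those of its loader were lower, but all 6 genes lay within the half-width. PCNA, which tethers the polymerases to DNA, also acts in repair and is a known p53 target, was at 170.0 FPKM in BMH-21 (bounds 135 to 205) and 133 FPKM in control (bounds 107 to 159). Its difference of 0.35 ± 0.41 was the highest of the 48 genes and within the half-width. All 5 clamp loader genes had lower estimates, with overlapping intervals and a median difference of -0.16. RFC1, the large subunit of the loader, was nearest to control, at 23.1 FPKM in BMH-21 (bounds 19.0 to 27.2) and 23.7 FPKM in control (bounds 19.5 to 28.0). RFC4 had the lowest estimate relative to control, at 16.9 FPKM in BMH-21 (bounds 7.94 to 25.9) and 25.2 FPKM in control (bounds 12.8 to 37.7), but its half-width of 1.09 was larger than its difference of -0.55. RFC2 was at 33.5 FPKM against 38.1 FPKM, RFC3 at 35.0 FPKM against 39.3 FPKM and RFC5 at 21.7 FPKM against 23.0 FPKM, BMH-21 against control.

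**Figure D3:**
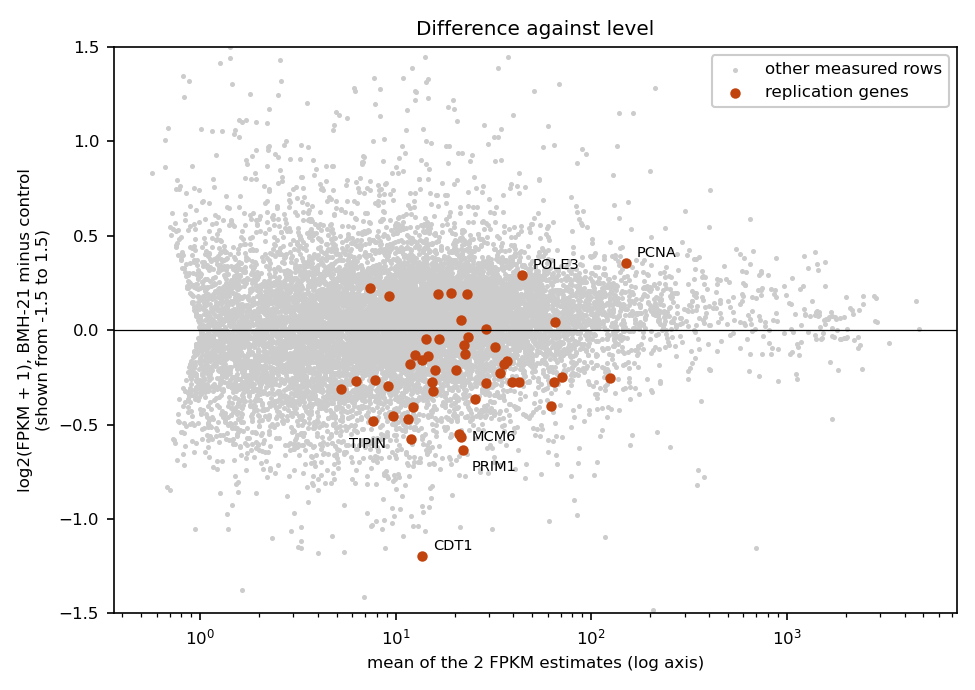
Difference on the log2(FPKM + 1) scale, BMH-21 minus control, against the mean of both FPKM estimates (log axis) for the 48 replication genes (red) and the other measured rows (grey), with rows beyond the axis not drawn. CDT1, at -1.20, is the lowest and PCNA, at 0.35, the highest of the 48.

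Genes that finish the lagging strand and coat single-stranded DNA differed by -0.25 to 0.19 log2, with a median of -0.05. FEN1, the nuclease that trims the flaps of Okazaki fragments, had the lowest difference of these 5 genes, at 64.4 FPKM in BMH-21 (bounds 52.8 to 76.0) and 76.6 FPKM in control (bounds 62.8 to 90.5). LIG1, the ligase that seals them, was at 16.3 FPKM in BMH-21 and 16.9 FPKM in control. Of the subunits of RPA, which coats single-stranded DNA, RPA1 was at 29.1 FPKM against 28.9 FPKM (its sign turned under each of 3 other scalings) and RPA2 at 31.2 FPKM against 33.2 FPKM, BMH-21 against control. RPA3, the smallest, was at 24.8 FPKM in BMH-21 (bounds 19.4 to 30.3) and 21.6 FPKM in control (bounds 16.7 to 26.6). No interval of these 5 genes was separate, which does not show that their levels are equal.

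The 4 genes that steady the moving fork all had lower estimates, and their median difference was -0.30. TIPIN, which forms a complex with TIMELESS that couples polymerase and helicase, was at 9.45 FPKM in BMH-21 (bounds 7.52 to 11.4) and 14.6 FPKM in control (bounds 11.7 to 17.5), a difference of -0.58 ± 0.38 with narrowly separate intervals. TIMELESS itself was at 13.8 FPKM in BMH-21 (bounds 11.2 to 16.3) and 16.9 FPKM in control (bounds 13.8 to 19.97), with overlapping intervals and the smallest difference of the 4. CLSPN, which encodes the checkpoint mediator claspin, was at 8.12 FPKM against 10.2 FPKM, BMH-21 against control. WDHD1, which links polymerase alpha to the helicase, was at 4.57 FPKM against 5.92 FPKM. Both overlapped, with differences of -0.29 ± 0.34 and -0.31 ± 0.32.

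Replication genes outside the 48 also had lower estimates more often than higher ones. Of 49 such genes of origin firing, fork progression, chromatin assembly and the fork checkpoint, 32 had lower estimates and 17 higher ones. Their median difference was -0.10, and 44.7% of measured rows had lower estimates. Under quantile normalization 37 were lower and 12 higher, while 52.7% of measured rows had lower estimates. As deposited, intervals were separate for 4 lower genes and 1 higher gene, where the shares of measured rows were 3.14% and 3.58%. With both groups rescaled to 1 sum without short RNAs they were separate for 7 lower genes and 0 higher ones, where the shares were 4.11% and 2.77%. TONSL, a fork repair factor, was at 7.92 FPKM in BMH-21 (bounds 6.40 to 9.43) and 12.1 FPKM in control (bounds 9.84 to 14.4), and DSCC1, part of an alternative clamp loader, was at 14.5 FPKM in BMH-21 (bounds 11.7 to 17.2) and 21.3 FPKM in control (bounds 17.3 to 25.4). Of the 8 chromatin factors at forks, 4 had lower and 4 had higher estimates as deposited, with a median difference of -0.03. Only 2 of them were separate, both lower. UHRF1, which guides DNA methylation to new strands, was at 44.0 FPKM in BMH-21 and 65.3 FPKM in control. CHAF1B, a subunit of the histone chaperone CAF-1, was at 5.95 FPKM in BMH-21 and 8.99 FPKM in control. DBF4B, which encodes an alternative activator of CDC7, was the higher gene, at 7.0 FPKM in BMH-21 (bounds 5.58 to 8.42) and 4.46 FPKM in control (bounds 3.53 to 5.40). None of the 9 checkpoint genes was separate, and their median difference was -0.00065.

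DTL, named here after its values were seen, encodes the receptor of the ubiquitin ligase that destroys CDT1 on PCNA. It was at 10.97 FPKM in BMH-21 (bounds 7.61 to 14.3) and 18.5 FPKM in control (bounds 13.8 to 23.3), a difference of -0.71 ± 0.55 with overlapping intervals. DTL was 1 of 8 genes of the 49 that were lower beyond the half-width, against 7.07% of measured rows. By the same call 1 of the 49 was higher, against 7.18%. A link between DTL and the level of CDT1 was not tested. Among 13 E2F, DP and pocket protein genes, 7 had lower and 6 had higher estimates as deposited, with a median difference of -0.06. Of the 13, 3 were lower with separate intervals, against 3.14% of measured rows, and 1 was higher, against 3.58%. The other 9 overlapped. E2F2, an activator and the lowest of the list, was at 1.53 FPKM in BMH-21 (bounds 1.18 to 1.87) and 4.29 FPKM in control (bounds 3.42 to 5.15). E2F1, another activator of replication genes, was at 12.4 FPKM in BMH-21 (bounds 9.99 to 14.8) and 21.3 FPKM in control (bounds 17.3 to 25.3). The activator E2F3 was at 8.32 FPKM in BMH-21 and 8.74 FPKM in control, with overlapping intervals. E2F8, a repressor of the same family, was at 1.35 FPKM in BMH-21 and 2.65 FPKM in control, while the repressor E2F7 was the higher one, by 1.27 log2.

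**Figure D4:**
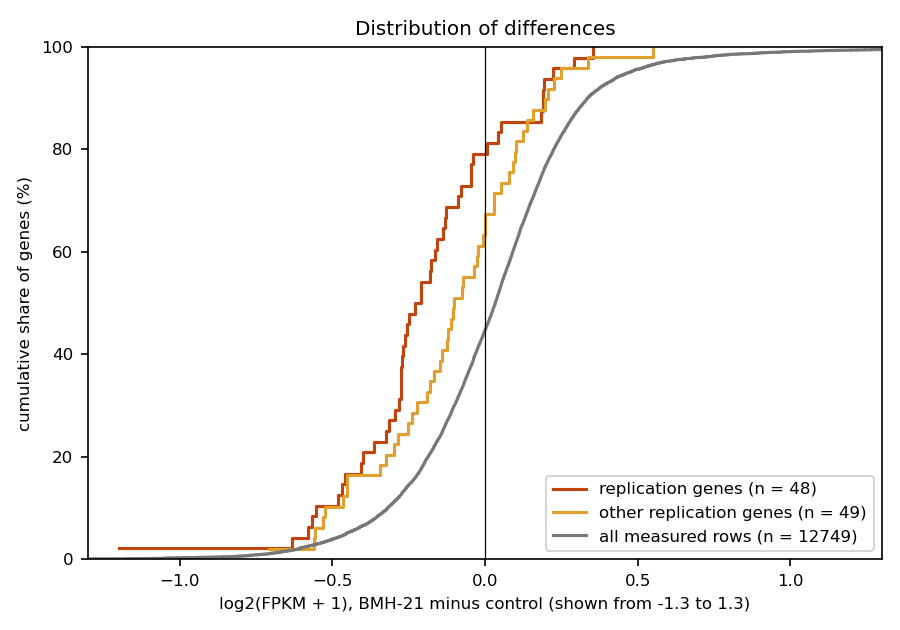
Cumulative share of genes (%) by difference on the log2(FPKM + 1) scale, BMH-21 minus control, for the 48 replication genes (red), 49 other replication genes (yellow) and all 12749 measured rows (grey), with the ends of the grey curve beyond the axis. Over most of its length the curve of the 48 genes lies left of that of all measured rows, with medians of -0.22 and 0.03, and that of the other replication genes, with a median of -0.10, runs mostly between them.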

How the data were processed

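RNA was extracted with Trizol and made into libraries with a stranded total RNA kit, per the labels' protocols, from 3 samples treated with BMH-21 and 3 controls. The authors deposited 1 table of FPKM values, which the submitters' processing notes link to TopHat2, to Cuffdiff 2.0 and to build GRCh37 without saying what each did. The sources used here do not name the annotation. Columns were read as 1 estimate and 2 bounds per group, after the midpoint check (relative tolerance 0.0001). The written design held a limma fit in reserve for columns that proved to be libraries, and it was not run.

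Differences are log2(FPKM + 1) in BMH-21 minus control. The half-width of a difference adds those of both intervals in quadrature on that scale. Ratios of levels use FPKM without a pseudocount. Rows that reached 1 FPKM in either group counted as measured, leaving out 325 rows of short RNAs. Intervals are separate where one group's lower bound exceeds the other's upper bound, and 11 measured rows with an estimate outside its bounds were not called. No test was made, and calls describe the authors' bounds. The genes, lists and words searched were chosen with earlier results of these data known. All 48 genes are given, with bounds where separate, beyond the half-width or at either end of a role group. Genes outside the 48 were named from the replication lists if separate. DTL, E2F3 and the markers were named after their values were seen. Alternatives covered scaling, filter, pseudocount and call. The calculation of differences, calls and scaling was checked on copies of the control values with known fold changes put into some genes. No noise was added in that check. Python 3.11.15, pandas 2.3.3, numpy 2.4.6 and matplotlib 3.10.9 were used. Promoters come from RefSeq (GRCh38.p14).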

Additional observations from a re-analysis of the deposited data

How the results depend on the processing

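No paired analysis was possible because the columns titled as replicates hold an estimate and its bounds, and for the same reason leaving out each replicate was not run. With the difference beyond the half-width as the call, 9 genes were lower in place of 4, the 4 genes included, by the construction of a wider call. A ratio of estimates of at least 1.5 as the call gave the same 4 genes. Dividing BMH-21 by the median ratio over measured rows kept the 4, quantile normalization gave 5 by adding POLD3, and 1 sum without short RNAs gave 6 by adding POLD3 and MCM10. Under these 3 scalings, in that order, 3.53%, 3.62% and 4.11% of measured rows were lower with separate intervals, against 3.14% as deposited. No gene was higher under any of these calls or scalings. The shares of measured rows that were higher were 3.12%, 3.08% and 2.77% under the 3 scalings, against 3.58% as deposited. Lower estimates numbered 38 to 41 under the scalings and filters (5 FPKM, or no filter). The median difference of the 48 genes ran from -0.28 to -0.22 over scalings, filters and pseudocounts (0.1 or none), and no scaling moved the median of all measured rows by more than 0.06 log2. The share of measured rows with a lower estimate was 44.7% as deposited but 54.4% with 1 sum without short RNAs. The sign turned for RPA1 under all 3 scalings, for POLD2 under quantile normalization and 1 sum without short RNAs, and for ORC4 under the last, all near 0. The unknown depth and the width of the bounds limit what can be told apart below about 1.46-fold.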
